A study of Mus musculus with 28 samples.

Results

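The genes described here are 10 immediate early genes that encode transcription factors, of 53801 features measured. They were chosen by name and comprise the AP-1 genes Fos, Fosb, Jun, Junb and Jund, the zinc finger genes Egr1 and Egr2, and the nuclear receptor genes Nr4a1, Nr4a2 and Nr4a3. Their RNA was measured in Treg cells of C57BL/6 mice carrying CT2A, a murine glioblastoma (GBM) cell line, in the forebrain. The line expresses GFP and a secreted luciferase, and tumors measured 2 mm3 when treatment began. Mice received the control antibody IgG2a, or αPD1 + αGITR, which blocks the inhibitory receptor PD1 and activates the receptor GITR, as 4 doses of 250 µg per mouse, 3 days apart. Spleens and tumors were taken 2 days after the last dose, and Treg cells were sorted as CD25hi CD127lo cells within the TCR+CD4+ gate, with CD8 T cells gated out. Values of 27 libraries were used, of which 7 (IgG2a) and 8 (αPD1 + αGITR) came from spleens, and 5 (IgG2a) and 7 (αPD1 + αGITR) from tumors. All groups bear tumors, so no tumor-free baseline was compared, and both antibodies were given together, so their effects cannot be told apart. Female and male mice were used in the study. The sex and age of the mouse behind each library were not used here. Sources differ on whether each spleen library came from its own mouse, and if some share a mouse the p-values over libraries are too small.

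Immediate early genes are transcribed within minutes of a stimulus, without new protein synthesis, and in T cells the stimulus is often the T cell receptor acting through calcium and MAP kinases. Jun proteins pair with each other or with Fos proteins to form AP-1, whereas Fos proteins bind DNA only as partners of Jun proteins. Egr proteins bind GC-rich sites, and Nr4a proteins are orphan receptors that take part in Treg cell development and in restraint of activated T cells. The transcripts decay fast and also respond to tissue dissociation, which tumors and spleens both went through before sorting.

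Levels are given in TPM, transcript abundances scaled by transcript length and to one total per library, and changes as differences of mean log2(TPM + 1), so that changes of low genes are understated. Fewer cells with a transcript and less of it per cell cannot be told apart in such bulk RNA. Read depth is unknown, and a level of 0 is written as listed at 0. The libraries had between 7702 and 17460 genes above 1 TPM, and the 10 most abundant features took between 31.9% and 78.3% of all TPM. Foxp3, the defining transcription factor of Treg cells, was found in every library, with group means between 167 and 310 TPM. Summed Treg and T cell markers (9 genes) had medians of 774 and 715 TPM in spleen after IgG2a and αPD1 + αGITR, with a range of 236 to 2410 TPM, and of 1450 and 2190 TPM in GBM, with a range of 1340 to 3290 TPM. Actb, the gene of a cytoskeletal actin, had means of 3870 and 3770 TPM in spleen and of 6490 and 9950 TPM in GBM. These levels run along the same axis as the differences of Jun, Junb and Nr4a3 between the tissues, and their part in those results was not tested. Defining markers of neutrophils, B cells and CD8 T cells were low, with group means of at most 2.64 TPM for S100a8, 1.86 TPM for Cd79a and 3.03 TPM for Cd8a. Summed macrophage and microglia markers (16 genes) ranged from 42.8 to 89 TPM and from 22.4 to 285 TPM in spleen after IgG2a and αPD1 + αGITR, and from 65.3 to 5030 TPM and from 37.7 to 1960 TPM in GBM. The high values came from tumor_79_a after IgG2a and tumor_73_a after αPD1 + αGITR. Medians of summed neuron and glia markers (10 genes) were 7.56 and 18.8 TPM in spleen after IgG2a and αPD1 + αGITR. In GBM they were 52.1 and 23.5 TPM. These sums reached 98.3 TPM in spleen_72_b and 171 TPM in tumor_79_a. Summed erythroid markers (2 genes) had medians of 13.8 and 51.2 TPM in spleen, with up to 312 TPM in spleen_73_a. In GBM no library exceeded 3.26 TPM. The part of either set in the results was not tested. Library tumor_369_a of GBM after IgG2a stood apart with the fewest genes, at 7702, and with Junb, Egr1, Nr4a1 and Nr4a3 at 3.01 TPM or less, each below the rest of its group, although Foxp3 reached at least 116 TPM in each library of its group. The main values that change with it are given with and without it.

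The 250 bases before a RefSeq transcript start are shown for Jun, Junb and Egr2, which passed a threshold in 1 or more comparisons, and for Nr4a1, whose window holds a site of the Egr factors. The window of Nr4a3, which also passed a threshold, is not shown. The windows are of the build GRCm38.p6 and are written 5′ to 3′ on the strand of the gene, with matches to the motifs in capitals. They lie at chr4:95052223-95052472 on the minus strand (Jun), chr8:84978749-84978998 on the minus strand (Junb), chr10:67537316-67537565 on the plus strand (Egr2) and chr15:101266596-101266845 on the plus strand (Nr4a1), and no annotated exon overlaps them. The Egr2 and Nr4a1 windows lie within the gene as GENCODE draws it, upstream of internal starts.
Jun: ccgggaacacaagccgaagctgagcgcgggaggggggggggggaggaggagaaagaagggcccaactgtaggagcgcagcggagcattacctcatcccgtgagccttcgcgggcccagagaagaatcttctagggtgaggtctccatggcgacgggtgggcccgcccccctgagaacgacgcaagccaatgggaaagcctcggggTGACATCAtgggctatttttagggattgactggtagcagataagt
Junb: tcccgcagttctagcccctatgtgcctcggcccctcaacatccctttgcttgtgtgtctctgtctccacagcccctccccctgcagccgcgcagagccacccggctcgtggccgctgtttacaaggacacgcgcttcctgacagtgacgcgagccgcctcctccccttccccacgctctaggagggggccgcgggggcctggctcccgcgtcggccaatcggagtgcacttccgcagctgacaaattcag
Egr2: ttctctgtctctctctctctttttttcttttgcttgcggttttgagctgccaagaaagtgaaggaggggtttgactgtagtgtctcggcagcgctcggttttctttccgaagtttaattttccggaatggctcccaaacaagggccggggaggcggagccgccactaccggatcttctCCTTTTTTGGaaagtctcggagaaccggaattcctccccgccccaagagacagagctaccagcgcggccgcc
Nr4a1: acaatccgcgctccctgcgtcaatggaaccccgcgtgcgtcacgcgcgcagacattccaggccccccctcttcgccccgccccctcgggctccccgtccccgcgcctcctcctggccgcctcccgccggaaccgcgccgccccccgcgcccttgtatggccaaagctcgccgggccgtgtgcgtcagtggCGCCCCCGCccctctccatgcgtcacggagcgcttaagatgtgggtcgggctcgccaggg

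The Egr2 window holds a CArG box, the motif of serum response factor, and was picked for display because it holds a motif. Of the 5 RefSeq windows of this gene, which overlap in part, 4 hold the box. The window at chr10:67535249-67535498 has none of the motifs. The Nr4a1 window holds an Egr site, GCGGGGGCG or GCGTGGGCG on either strand, and the Fosb window holds one too. Jun has TGACATCA, a variant of the AP-1 site, which was added to the search after the window had been read. The windows of Junb, Fos, Jund, Nr4a2 and Nr4a3, 5 of the 9 genes, have none of the motifs searched. On both strands of 32851 windows of this length, the CArG box occurred in 1.47%, the Egr site in 3.06%, TGACATCA in 2.93%, the AP-1 site TGACTCA in 4.46%, the cAMP response element TGACGTCA in 1.55% and AAAGGTCA, the site of single Nr4a receptors, in 1.34%. The last 3 motifs matched in no window of the members. A window was found for 9 of the 10 genes, all but Egr1. These matches describe the letters of the windows and not the binding of a factor.

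In the GENCODE annotation of GRCm38, Jun (chr4:95049034-95052222, minus strand) and Junb (chr8:84974484-84978718, minus strand) have a single exon, as has Jund (chr8:70698949-70700616, plus strand). Fos lies at chr12:85473890-85477273 on the plus strand with 4 exons, and Fosb at chr7:19302696-19310051 on the minus strand. Egr2 lies at chr10:67535475-67542188 on the plus strand with 2 exons. The receptor genes Nr4a1 (chr15:101254269-101274795, plus strand), Nr4a2 (chr2:57106830-57124003, minus strand) and Nr4a3 (chr4:48045153-48086447, plus strand) have 8 exons each.

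Junb was by far the most abundant transcript of the group. Its median over the 27 libraries was 321 TPM, and it had the highest level of the 10 genes in 24 of them, in 6 of 7, 7 of 8, 4 of 5 and 7 of 7 libraries in the order of spleen and then GBM, each after IgG2a and then αPD1 + αGITR. Nr4a1, Nr4a3, Egr1 and Jun followed with medians of 64.1, 49.2, 36 and 19.9 TPM, and the ranges of these neighbours overlap in every group. Egr2 had a median of 9.83 TPM, Jund 2.89 TPM and Nr4a2 1.46 TPM. Fos, the textbook immediate early gene, was at the bottom with Fosb, at medians of 0.52 and 0.64 TPM. Fos was listed at 0 in 10 of the 27 libraries and exceeded 10 TPM in 6. The sum of the 10 genes had a median of 376 TPM in spleen after IgG2a, 513 TPM in spleen after αPD1 + αGITR, 650 TPM in GBM after IgG2a and 844 TPM in GBM after αPD1 + αGITR. Junb made up a median of 58%, 51.2%, 55.1% and 67.9% of these sums.

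**Figure D1:**
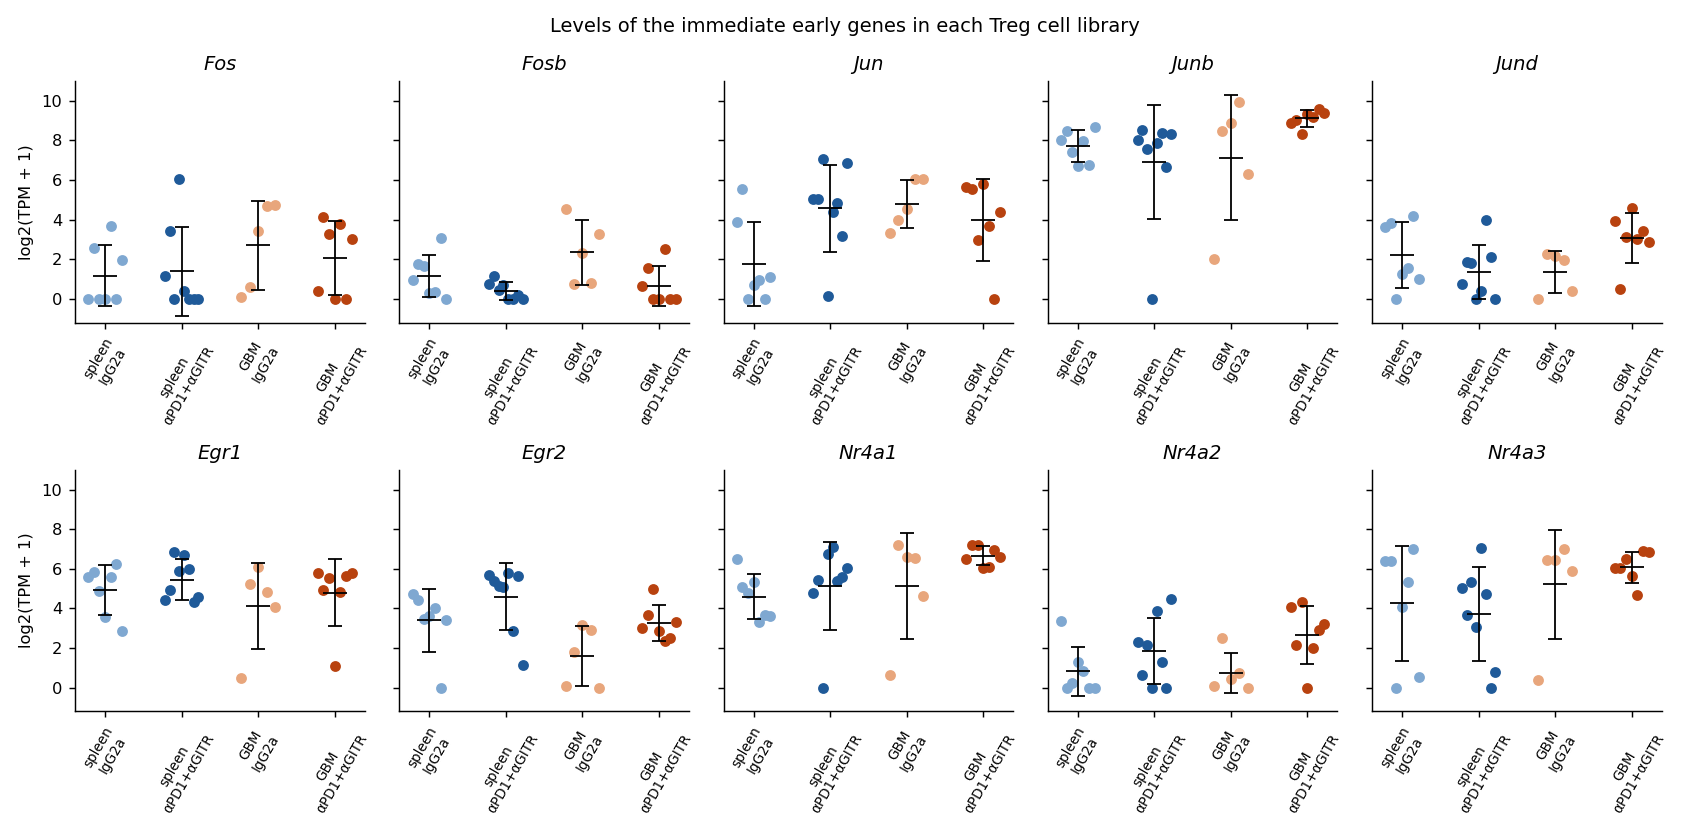
Level of each of the 10 genes in every library, as log2(TPM + 1) on the vertical axis, with 1 point per library, the 4 groups on the horizontal axis and the mean ± SD as a bar. Junb lies highest in each group, GBM Treg cells after αPD1 + αGITR sit close together for Junb and Nr4a1, and single libraries at or near 0 widen several other groups.

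Among AP-1 genes Jun, the founding member of the family, had its lowest median in splenic Treg cells after IgG2a and medians of at least 19.9 TPM in each of the other groups. Its level in these 7 spleens ran from a listed 0 through a median of 0.96 TPM to 45.1 TPM, with 5 libraries at or below 1.15 TPM. Among these are spleen_79_a, spleen_79_b, spleen_79_c and spleen_79_d, which share a label number, at 0.66, 0.96, a listed 0 and 1.15 TPM. In the 8 spleens after αPD1 + αGITR Jun ran from 0.12 through 29.9 to 136 TPM, with 7 libraries above the IgG2a median. In GBM after IgG2a the 5 values were 9, 14.9, 22.6, 64.6 and 66.2 TPM, and all lay above the splenic median. In GBM after αPD1 + αGITR the level ran from a listed 0 through 19.9 to 54.2 TPM. The groups overlapped in every comparison, since 1 or more libraries of each pair crossed.

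Jun was higher in GBM than in splenic Treg cells after IgG2a by 3.05 on the log2 scale (SE 0.992, 95% interval 1.03 to 5.07, unadjusted p = 0.00419, exact permutation p = 0.0278). Its adjusted p of 0.188 (limma, Benjamini-Hochberg over 7380 genes) did not pass. In spleen Jun was higher after αPD1 + αGITR than after IgG2a by 2.84 (SE 0.961, 95% interval 0.87 to 4.80, unadjusted p = 0.00633, exact permutation p = 0.0301), and was 17th by p among 6634 genes, with an adjusted p of 1 in limma. No such difference appeared in GBM, where Jun stood at -0.80 (SE 0.881, unadjusted p = 0.376) after treatment, or between the tissues after αPD1 + αGITR, at -0.58 (SE 0.908, unadjusted p = 0.528). The interaction, which is the treatment change in GBM less that in spleen, was -3.63 for Jun (SE 1.40, unadjusted p = 0.0131, adjusted p = 0.325 in limma). Leaving out each library in turn kept the 2 higher values past the study's threshold, an unadjusted p under 0.05 with a change of more than 2-fold, with ranges of 2.73 to 3.68 between the tissues and 2.48 to 3.47 in spleen. Leaving out single libraries cannot show whether spleens with the same label number share a mouse. With same-numbered libraries averaged, Jun also passed this threshold in both comparisons. Junos, a transcript antisense to Jun whose reads cannot be told apart in a protocol without strand, had group means of at most 4.27 TPM. That mean was in GBM after IgG2a, where Junos was listed at 0 in 3 of 5 libraries and reached 17.5 TPM.

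Junb, the partner with the highest level, was tightly grouped and high in GBM Treg cells after αPD1 + αGITR. The 7 values there ran from 321 through a median of 584 to 775 TPM. In spleen after αPD1 + αGITR the range was a listed 0 through 249 to 364 TPM, and 6 of the 7 GBM libraries lay above every one of these 8. In spleen after IgG2a it was 102 through 250 to 412 TPM. The 5 GBM libraries after IgG2a were widely spread, at 3.01, 79.1, 358, 476 and 994 TPM. After αPD1 + αGITR, Junb was higher in GBM than in spleen by 2.19 (SE 0.874, 95% interval 0.39 to 4.00, unadjusted p = 0.0191, adjusted p = 0.0724 in limma, exact permutation p = 0.00264). Without spleen_72_b, where Junb, Jund and Nr4a2 are listed at 0, the difference was 1.21 with an adjusted p of 0.0474, and with TMM-type scaling, which sets libraries level by a trimmed mean over genes, it was 1.56 with an unadjusted p of 0.119. Junb also missed the study's threshold with a pseudocount of 0.1, rescaled TPM and genes detected as a covariate, at 2.61, 2.02 and 1.69 with unadjusted p-values of 0.0543, 0.0642 and 0.0601.

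Within GBM, Junb was higher after αPD1 + αGITR than after IgG2a by 1.97 (SE 0.895, unadjusted p = 0.0393, adjusted p = 0.206 in limma, exact permutation p = 0.0821). Without tumor_369_a it was 0.69 (unadjusted p = 0.179), and without tumor_79_a or tumor_73_a, those rich in macrophage markers, it was 1.77 or 1.94 with unadjusted p-values of 0.0876 and 0.054. It passed the study's threshold in 5 of 12 fits without a single library. Of the other alternatives, it passed with a pseudocount of 10 and with genes detected as a covariate, and missed it in the rest, at values between 0.14 and 2.05 with unadjusted p-values between 0.0569 and 0.758. The part of macrophage RNA in the result was not tested. After IgG2a, Junb stood at -0.58 in GBM against spleen (SE 0.944, unadjusted p = 0.541) with tumor_369_a, and at 0.70 without it. In spleen it stood at -0.80 after treatment (SE 0.914, unadjusted p = 0.387), or 0.19 without spleen_72_b. The interaction for Junb was 2.78 (SE 1.41, unadjusted p = 0.0567, adjusted p = 0.429 in limma) and 1.49 without tumor_369_a. Prdx2, a peroxiredoxin gene on the opposite strand, overlaps the 3′ end of Junb and had group means between 42.2 and 99.8 TPM, so part of its reads cannot be separated from those of Junb.

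Fos, Fosb and Jund stayed low. Fos in GBM after IgG2a had the values 0.07, 0.52, 9.72, 24.8 and 25.9 TPM, against medians that were listed at 0 in spleen after IgG2a, 0.17 TPM in spleen after αPD1 + αGITR and 7.12 TPM in GBM after αPD1 + αGITR. Its highest value, 66.1 TPM, came from spleen_72_b after αPD1 + αGITR, the library that lists Junb at 0. Fos stood at 1.54 in GBM against spleen after IgG2a (SE 1.07, unadjusted p = 0.16) and at -0.62 in GBM after treatment (SE 1.04, unadjusted p = 0.561). Without tumor_369_a these values were 2.19 (unadjusted p = 0.0479, adjusted p = 0.414 in limma), past the study's threshold, and -1.27 (unadjusted p = 0.237). In the other comparisons of 2 groups Fos was below the filter of a mean of 10 TPM, and its differences were 0.71 between the tissues after αPD1 + αGITR (exact permutation p = 0.524) and 0.21 in spleen after treatment (exact permutation p = 0.839). Without spleen_72_b these were 1.37 (exact permutation p = 0.181) and -0.46 (exact permutation p = 0.592).

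Fosb, Jund and Nr4a2 were below that filter in every comparison, so only their exact permutation tests are given, 12 of 40 such tests and unadjusted. Jund in GBM after αPD1 + αGITR ran from 0.42 through 7.66 to 23.5 TPM, and 6 of these 7 libraries lay above all 5 values after IgG2a, which were a listed 0, 0.34, 2.89, 3.44 and 3.89 TPM. The difference was 1.71 (exact permutation p = 0.0429), and against spleen after αPD1 + αGITR it was also 1.71 (exact permutation p = 0.0315). With single libraries left out, the exact permutation p-values of Jund ranged from 0.00216 to 0.0939 and from 0.00699 to 0.0646, and within GBM the difference was 1.37 without tumor_369_a (exact permutation p = 0.0939). Fosb had its highest level, 22.6 TPM, in tumor_369_a of GBM after IgG2a, the library with the lowest Junb of that tissue. The other 4 values of that group were 0.68, 0.77, 3.99 and 8.74 TPM, and 5 of the 7 libraries after αPD1 + αGITR were lower than all of them, at a difference of -1.66 (exact permutation p = 0.0556). Without tumor_369_a it was -1.11 (exact permutation p = 0.161), and without tumor_76_a -2.06 (exact permutation p = 0.0242). With single libraries left out, the exact permutation p-values of Fosb in GBM ranged from 0.0238 to 0.161. The other 5 tests of Fosb and Jund gave exact permutation p-values between 0.087 and 0.532.

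Of the Egr genes, Egr2 encodes a factor known to restrain T cell activation. It stood lower in GBM than in spleen in both treatments, although neither difference passed a threshold in the main fit. In spleen it ran from a listed 0 through 11.4 to 25.6 TPM after IgG2a, and from 1.25 through 37.4 to 54.6 TPM after αPD1 + αGITR, where 6 of 8 libraries exceeded every one after IgG2a. In GBM the 5 values after IgG2a were a listed 0, 0.05, 2.53, 6.64 and 7.86 TPM, all below the splenic median, and after αPD1 + αGITR the range was 4.18 through 7.18 to 31 TPM. GBM stood at -1.80 against spleen after IgG2a (SE 0.964, unadjusted p = 0.0705, adjusted p = 0.545 in limma) and at -1.34 after αPD1 + αGITR (SE 0.675, unadjusted p = 0.059, adjusted p = 0.137 in limma). Without spleen_80_a the latter was -1.83 with an adjusted p of 0.0308, and without spleen_79_c the former was -2.37 with an unadjusted p of 0.0166. With TMM-type scaling the values were -2.05 (unadjusted p = 0.0356) and -2.09 (unadjusted p = 0.0109), both past the study's threshold, as was -1.73 with rescaled TPM after αPD1 + αGITR, and after IgG2a the values with all 4 groups in 1 fit, averaging and the replicate block (-1.80, -2.41 and -2.62).

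Within GBM, Egr2 was higher after treatment by 1.66 (SE 0.779, 95% interval 0.04 to 3.29, unadjusted p = 0.0453, adjusted p = 0.216 in limma, exact permutation p = 0.0341), and all 7 treated libraries lay above the IgG2a median. The value was 1.28 without tumor_369_a (unadjusted p = 0.104), and 1.26 without tumor_79_a (unadjusted p = 0.112), which lists Egr2 at 0 and has the 5030 TPM of macrophage markers. Egr2 was tested in 11 fits without a single library and passed the study's threshold in 4 of them. Egr2 also missed the study's threshold with a pseudocount of 10, TMM-type factors, rescaled TPM, library weights, all 4 groups in 1 fit and averaging of same-numbered libraries, at values between 0.57 and 1.83 with unadjusted p-values between 0.0549 and 0.2. Over the 27 libraries, within groups, Egr2 had a Spearman correlation of -0.57 with summed macrophage markers and of 0.50 with the number of genes above 1 TPM, and Nr4a1 of -0.40 and 0.49. These describe libraries that share depth and composition, and the part of either measure in the results was not tested. In spleen the difference was 1.20 (SE 0.803, unadjusted p = 0.147), or 1.69 without spleen_80_a (unadjusted p = 0.0341) and 0.63 without spleen_79_c. The interaction for Egr2 was 0.47 (SE 1.12, 95% interval -1.80 to 2.73, unadjusted p = 0.68), so a difference between the tissues in their response was not detectable.

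Egr1, the zinc finger factor often read as a sign of MAP kinase signalling, passed no threshold in the main fit of any comparison. Its group medians were 47.1 and 43.9 TPM in spleen and 27.1 and 45.1 TPM in GBM, after IgG2a and αPD1 + αGITR respectively. The lowest values were 0.40 TPM in tumor_369_a after IgG2a and 1.12 TPM in tumor_73_a after αPD1 + αGITR. Its 4 changes lay between -0.80 and 0.66, with unadjusted p-values between 0.327 and 0.481. GBM against spleen after IgG2a moved from -0.80 to 0.11 without tumor_369_a, and treatment in GBM from 0.66 to -0.26. With TMM-type scaling, GBM against spleen after αPD1 + αGITR stood at -1.39 for Egr1 (unadjusted p = 0.0497), past the study's threshold.

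The Nr4a receptors had higher medians in GBM than in spleen after αPD1 + αGITR, and Nr4a3 passed both thresholds there. Nr4a3 ran from 24.2 through 64 to 116 TPM in these GBM libraries, and all 7 lay above the median of 18.7 TPM in spleen after αPD1 + αGITR, where the range was a listed 0 to 131 TPM. The difference was 2.37 (SE 0.80, 95% interval 0.72 to 4.02, unadjusted p = 0.00664, exact permutation p = 0.0213). Its adjusted p of 0.0443 (limma, Benjamini-Hochberg) made it the only one of the 10 genes past the adjusted threshold in the main fit of any comparison. In this comparison 2 members passed that threshold with a pseudocount of 10 or with library weights. The adjusted p of Nr4a3 ranged from 0.0171 to 0.077 when single libraries were left out, and stayed under the threshold in 4 of 15 such fits. It was lost in 7 of 10 other alternatives, with adjusted p-values between 0.0813 and 0.272, and kept with a pseudocount of 10, library weights and the replicate block. With TMM-type scaling, which lowers the median of all genes from 0.95 to 0.27, the difference was 1.56 with an unadjusted p of 0.0901. After IgG2a the 5 GBM values were 0.30, 58, 84.8, 86 and 125 TPM, and the splenic range was a listed 0 through 38.7 to 129 TPM, at a difference of 0.97 (SE 1.16, unadjusted p = 0.408), or 2.19 without tumor_369_a (unadjusted p = 0.0587). After treatment Nr4a3 stood at 0.86 in GBM (SE 0.865, unadjusted p = 0.332), or -0.35 without tumor_369_a, and at -0.54 in spleen (SE 1.08, unadjusted p = 0.622).

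Nr4a1, whose product Nur77 is widely used as a reporter of T cell receptor signalling, was even in GBM after αPD1 + αGITR, from 64.1 through 96.9 to 146 TPM. In spleen after αPD1 + αGITR it ran from a listed 0 through 44.6 to 136 TPM, and in spleen after IgG2a from 8.86 through 26.6 to 88 TPM. In GBM after IgG2a the values were 0.56, 23.4, 92.6, 95.9 and 144 TPM, and 3 of these 5 exceeded all 7 spleens. GBM stood at 1.52 against spleen after αPD1 + αGITR (SE 0.738, unadjusted p = 0.0503, adjusted p = 0.124 in limma, exact permutation p = 0.039), just outside the threshold. Without spleen_70_c, where Nr4a1 is listed at 0, this was 0.79. It passed the study's threshold with a pseudocount of 10, genes detected as a covariate, library weights, averaging of same-numbered libraries and the replicate block, at values between 1.03 and 1.86 with unadjusted p-values between 0.00829 and 0.047, and without spleen_72_b, spleen_72_c or spleen_80_a. After IgG2a the difference was 0.51 (SE 0.948, unadjusted p = 0.593), or 1.63 without tumor_369_a (unadjusted p = 0.0464). Treatment stood at 1.54 in GBM (SE 0.825, unadjusted p = 0.0771), or 0.42 without tumor_369_a, and at 0.53 in spleen (SE 0.829, unadjusted p = 0.528). The value in GBM passed the study's threshold with genes detected as a covariate, and without tumor_76_a (2.05), tumor_77_a or tumor_78_a.

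Nr4a2 was the low member of the family. It ran from a listed 0 through 6.43 to 19.2 TPM in GBM after αPD1 + αGITR, and 4 of these 7 libraries lay above all 5 after IgG2a, with a listed 0, 0.06, 0.35, 0.67 and 4.69 TPM. The difference was 1.91 (exact permutation p = 0.0417), or 1.74 without tumor_369_a (exact permutation p = 0.0848). In spleen its median was 0.18 TPM after IgG2a and 2.5 TPM after αPD1 + αGITR (exact permutation p = 0.205). GBM stood at -0.07 against spleen after IgG2a (exact permutation p = 0.912) and at 0.81 after αPD1 + αGITR (exact permutation p = 0.337), so no difference between the tissues was detected for Nr4a2.

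**Figure D2:**
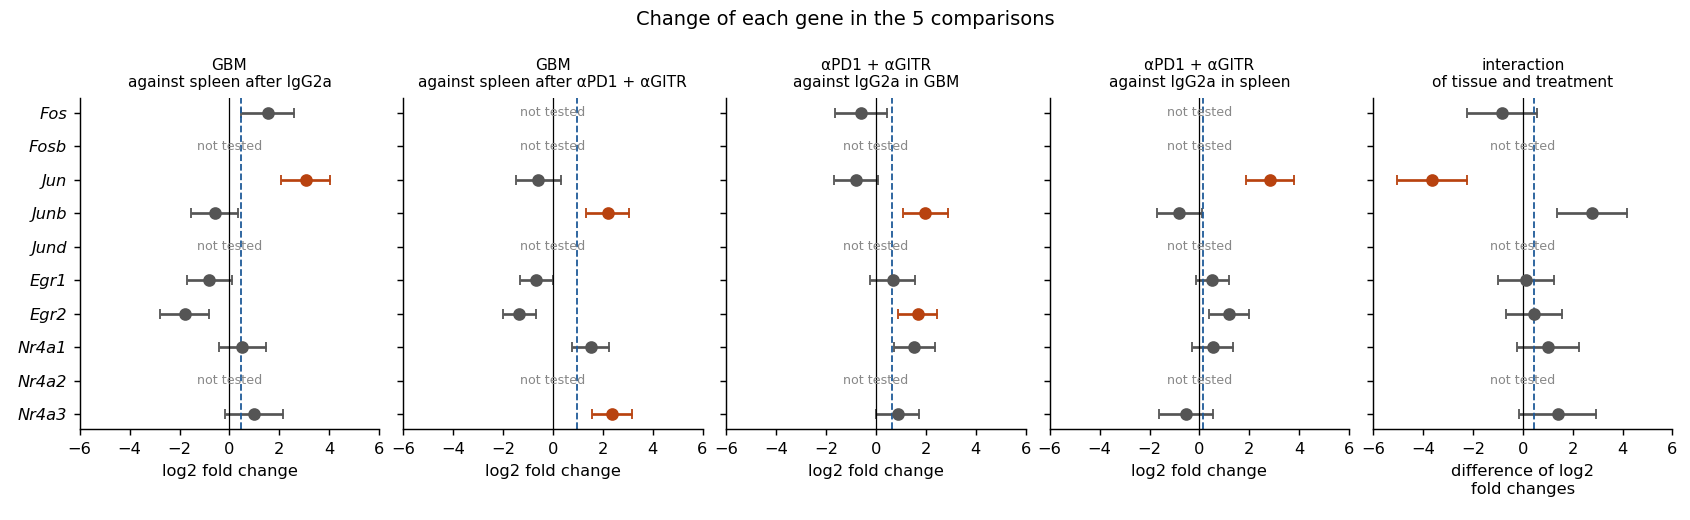
Change of each gene with its standard error in the 5 comparisons, as log2 fold change on the horizontal axis (for the interaction, the difference of 2 log2 fold changes). Points with an unadjusted p under 0.05 are red, and the dashed line marks the median of all genes tested. Jun is the one gene past that p in 3 panels, at 3.05, 2.84 and -3.63.

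Counted together, few of the 10 genes passed a threshold, and with 6 or 7 tested in a comparison a single gene moves their share by much. Adjusted calls have an adjusted p under 0.05 (limma, Benjamini-Hochberg). In GBM against spleen after IgG2a, 1 of 7 members tested, Jun, passed the study's threshold and was higher, against 7.63% of all genes higher and 2.3% lower. None of the 7 passed the adjusted threshold, which 0.569% of all genes did, and 1 had an unadjusted p under 0.05. In the same comparison after αPD1 + αGITR, 2 of 6 members, Junb and Nr4a3, were higher, against 33.9% of all genes higher and 6.31% lower, and 1 of 6 passed the adjusted threshold against 17.5%. In GBM after treatment, 2 of 7, Junb and Egr2, were higher, against 16.8% higher and 4.87% lower. In spleen after treatment, 1 of 6, Jun, was higher, against 1.49% higher and 1.04% lower. For the interaction, 1 of 7, Jun, was lower, against 6.8% higher and 5.35% lower, and the values of Fos, Egr1, Nr4a1 and Nr4a3 lay between -0.83 and 1.40, with unadjusted p-values between 0.374 and 0.899. Without tumor_369_a the interaction of Nr4a3 went from 1.40 to 0.19 and that of Fos from -0.83 to -1.48. The treatment comparisons and the interaction had 0% adjusted calls in limma among all genes, with 1749, 168 and 1056 genes at an unadjusted p under 0.05 in GBM, spleen and the interaction.

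No member tested had groups that did not overlap, which was so for 1.48% of all genes between the tissues after IgG2a, 3% after αPD1 + αGITR, 2.19% in GBM and 0.0151% in spleen after treatment. The median change of the members was 0.51 between the tissues after IgG2a, 0.47 after αPD1 + αGITR, 0.86 in GBM and 0.52 in spleen after treatment. The medians of all genes tested were 0.48, 0.95, 0.62 and 0.15 in the same order, so the values of the members stand beside a general shift toward GBM and toward treatment. TMM-type scaling moved these 4 medians of all genes to 0.20, 0.27, 0.05 and -0.01, and those of the members to 0.06, -0.25, 0.42 and 0.36. Between the tissues after αPD1 + αGITR, 2 members passed the study's threshold with this scaling too, but these were Egr1 and Egr2, both lower, in place of Junb and Nr4a3. The comparisons share groups, so they are not independent of each other.

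**Figure D3:**
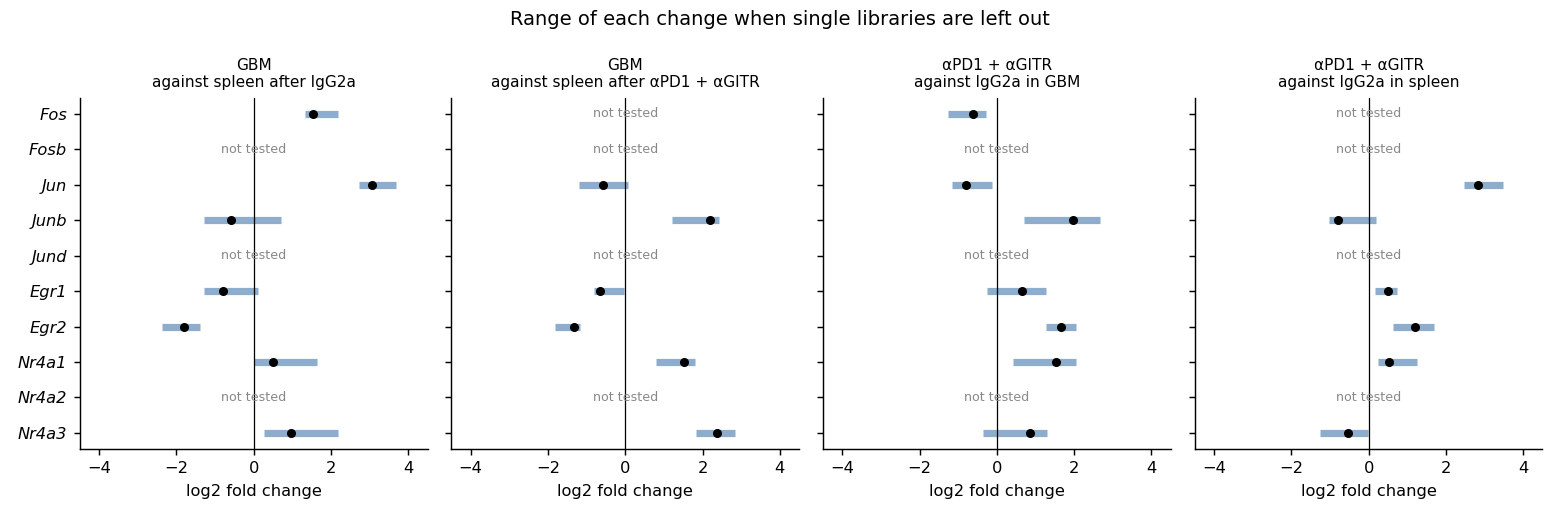
Range of the log2 fold change (horizontal axis) of each gene tested when single libraries are left out (blue bar), with the value over all libraries as a black point. Jun keeps its side of 0 between the tissues after IgG2a (2.73 to 3.68) and in spleen after treatment (2.48 to 3.47), and the bars of Junb and Egr1 cross 0 between the tissues after IgG2a.

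Other genes of the pathway were read from 5 lists, and their counts stand beside the shares of all genes tested. Between the tissues after αPD1 + αGITR, 77.6% of all genes stood higher in GBM, 33.9% passed the study's threshold as higher and 17.5% the adjusted one, and after IgG2a these shares were 66.1%, 7.63% and 0.569%, with 2.3% lower at the study's threshold. After treatment 16.8% of all genes were higher at the study's threshold in GBM and 1.49% in spleen, with 0% adjusted calls in limma in both. Among AP-1 partners, 3 of 8 genes tested passed the adjusted threshold in GBM against spleen after αPD1 + αGITR, and 5 of 8 passed the study's threshold, all higher. Fosl2, which encodes another Fos family member, had 35.2 ± 13 TPM (SD, n = 7) in GBM against 2.96 ± 4.17 TPM (SD, n = 8) for spleen, a difference of 3.80 (SE 0.64, adjusted p = 0.000745 in limma). After IgG2a it stood at 24.5 ± 16.4 TPM (SD, n = 5) and 1.74 ± 3.45 TPM (SD, n = 7), a difference of 3.64 (SE 0.93, adjusted p = 0.0531 in limma). Maf, a basic leucine zipper factor, was also higher, by 2.61 (adjusted p = 0.0036 in limma) after αPD1 + αGITR and by 2.84 (adjusted p = 0.188) after IgG2a. In GBM after treatment 1 of 9 partners passed the study's threshold, Mafg at 2.16 (adjusted p = 0.119), and in spleen none of 5 did.

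Of the other immediate early genes, 23 of 27 tested stood higher in GBM than in spleen after αPD1 + αGITR, and 17 of 26 after IgG2a, against 77.6% and 66.1% of all genes. After αPD1 + αGITR, 9 of 27 passed the adjusted threshold and 16 the study's, all 16 higher, against 17.5% and 33.9% of all genes, among them Dusp5, a phosphatase of MAP kinases, by 3.40 (adjusted p = 0.00123 in limma), Klf6 by 3.01 (adjusted p = 0.00503) and Id2 by 2.98 (adjusted p = 0.00272). After IgG2a 3 of 26 were higher at the study's threshold and 2 lower, against 7.63% and 2.3% of all genes, and none passed the adjusted one. Of these, Bhlhe40 was higher by 3.31 (adjusted p = 0.0753) and Klf2, which T cells lose on activation, stood at -2.49 (adjusted p = 0.377). Treatment gave 5 of 26 higher in GBM at the study's threshold, against 16.8% of all genes, with Ppp1r15a, a stress-induced phosphatase subunit, at 2.43 (adjusted p = 0.116), and 1 of 23 in spleen, Zfp36l2, lower at -1.62 (adjusted p = 1), against 1.04% of all genes lower.

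Genes that carry signals to these promoters were led by Crem, a cAMP-responsive factor, with 65.2 ± 22.6 TPM (SD, n = 7) in GBM against 5.56 ± 8.25 TPM (SD, n = 8) for spleen after αPD1 + αGITR. It was higher by 4.19 (SE 0.66, adjusted p = 0.000364 in limma), and by 3.57 after IgG2a (adjusted p = 0.0354). After IgG2a Crem was the 1 adjusted call among 26 signalling genes tested. In all, 9 of 24 signalling genes passed the study's threshold between the tissues after αPD1 + αGITR, all higher, and 3 the adjusted one, against 33.9% and 17.5% of all genes. After treatment in GBM 9 of 27 were higher at the study's threshold, against 16.8% of all genes, and none at the adjusted one, with Elk1, a partner of serum response factor, at 2.20 (adjusted p = 0.147). In spleen none of 20 passed either threshold.

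Heat shock genes, which respond to dissociation together with the immediate early genes, had medians close to those of all genes. These were 0.63 and 1.16 between the tissues after IgG2a and αPD1 + αGITR, 0.51 in GBM and 0.09 in spleen after treatment. At the study's threshold 4 of 11 were higher in GBM after αPD1 + αGITR, against 33.9% of all genes, with Hspa5, a chaperone of the endoplasmic reticulum, at 1.77 (adjusted p = 0.0382 in limma). In the other comparisons of 2 groups none of 12, 11 and 11 passed. Whether dissociation has a part in the levels of the 10 genes was not tested.

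Genes that respond to the T cell receptor over a longer time had larger median changes than the 10 genes between the tissues. Of 20 tested after IgG2a, 19 were higher in GBM, 12 at the study's threshold and 5 at the adjusted one, against 7.63% and 0.569% of all genes, with a median of 2.47. Tigit, an inhibitory receptor, was higher by 4.94 (adjusted p = 0.00332 in limma) and Tnfrsf9, a costimulatory receptor, by 4.36 (adjusted p = 0.0079). After αPD1 + αGITR all 17 tested were higher, 15 at the study's threshold and 12 at the adjusted one, again with a median of 2.47, led by Nfil3 at 4.54 (adjusted p = 9.71e-05) and Ccr8 at 4.49 (adjusted p = 0.000402). After treatment their median was 0.26 in GBM, below the 0.62 of all genes, with 4 of 20 higher at the study's threshold against 16.8%. In spleen it was 0.36, with 2 of 16 higher against 1.49%, and Lag3, an inhibitory receptor, stood at 3.89 (adjusted p = 0.449) with the lowest p of the list. Of this list 2 genes, Il2ra and Ctla4, are also among the Treg cell markers.

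**Figure D4:**
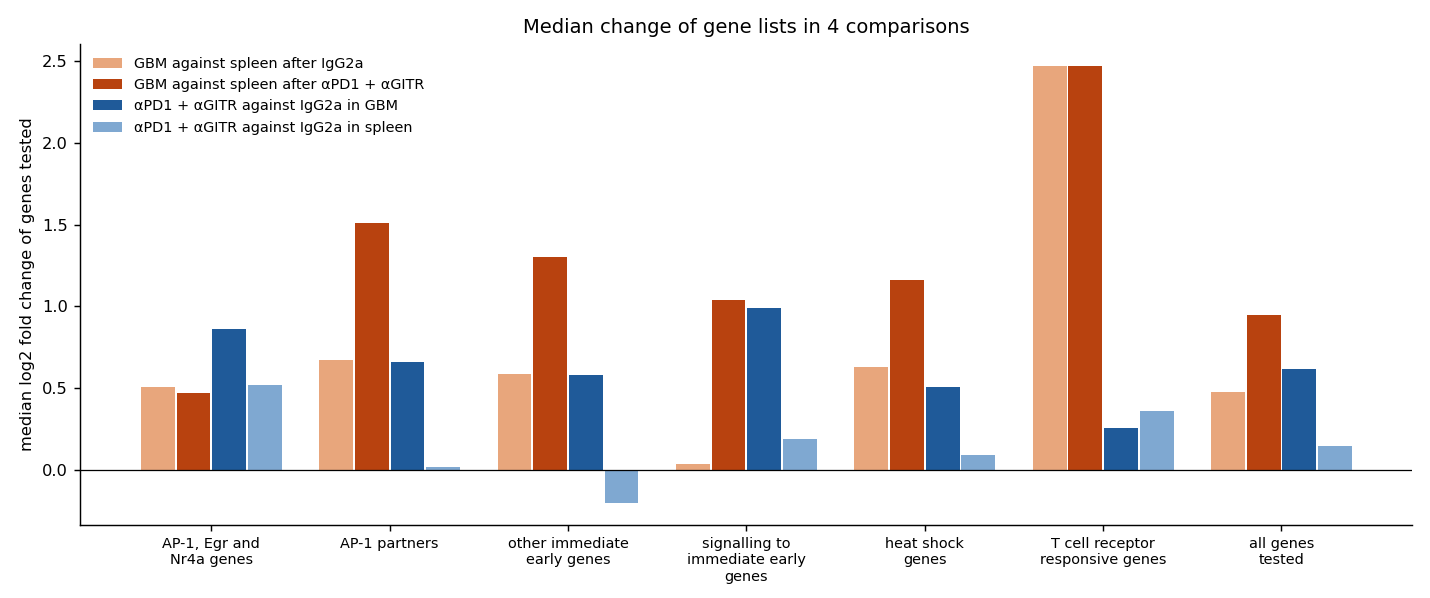
Median log2 fold change (vertical axis) of the 10 genes, of the 5 lists and of all genes tested in the 4 comparisons of 2 groups, shown by colour. T cell receptor responsive genes stand at 2.47 in both comparisons of tissues, whereas the 10 genes stand at 0.51 and 0.47, near or below the medians of 0.48 and 0.95 over all genes. Some genes of the T cell receptor list were reported by the study as higher in GBM from the same data.

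The genes most like the 10 in their pattern were found by Spearman correlation with the mean of the members' scaled levels, over 27 libraries after each group's mean had been taken off. Of 8680 genes compared, Sun2, Chtf8, Spns1, Tmem201, Sp3os, Pcgf3, Ncbp1 and Map4k4 were closest, with coefficients between 0.71 and 0.75. The 99th percentile over all genes was 0.60. The coefficients are a description, the libraries share their depth and composition across genes, and no test was made. Among the members themselves Egr1 and Nr4a3 were the most alike pair of 45, at 0.72, and Fosb and Nr4a2 the least, at -0.41.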

How the data were processed

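Treg cell RNA was profiled in bulk by Smart-Seq2, which does not mark strand, on a NextSeq500 instrument. Per the study's methods the authors aligned reads to mm10 with Tophat and computed TPM with RSEM. The labels name TopHat2 and bcl2fastq, and versions and annotation are not given in the sources used here. The authors deposited TPM with 1 added, for 53801 features, before their own cut-offs on level and CV. Of 28 samples described, 27 were used. Of 9 treated spleens, 1 was not used, because 1 column of values has no sample name. Read depth is unknown, so no counting intervals are given and precision rests on the spread between libraries. Groups follow the sample labels. The series' design text says that samples of a tissue came from different mice, whereas the study's figure legend counts fewer animals than there are spleen libraries. Several libraries of a group share a label number, as do both tissues, and what the numbers mean is not given. Libraries were taken as separate mice, with averaging of same-numbered libraries as an alternative, and libraries are named here by their labels.

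After 1 was taken off, log2(TPM + 1) was fitted with limma 3.58.1 (R 4.3.3, trended eBayes) over the 2 groups compared, and over all 4 for the interaction. A gene was tested when its mean exceeded 10 TPM in at least 1 group fitted, and p-values are two-sided, with Benjamini-Hochberg adjustment over all genes tested. No test of the study's differential expression is named in its methods. The study does not say whether the p of its threshold is adjusted, and it was taken here as unadjusted. Exact permutation tests are two-sided over all splits, and the smallest p is 0.00126 for 5 against 7 libraries and 0.000155 for 7 against 8. All 10 members are described in the comparisons of 2 groups, and those tested in the interaction. From each list the text takes genes out of up to 4 with the largest change past either threshold, or else out of the 2 with the lowest p, and it takes the 8 genes most like the members. The members, lists and tests were chosen with earlier results of these data known. Gene positions are from GENCODE vM21 (GRCm38, the assembly of mm10) and promoter windows from RefSeq (GRCm38.p6), matched by symbol. The fits were repeated with pseudocounts of 0.1 and 10, without the filter, with TMM-type factors (30% and 5% trimmed), with TPM rescaled without the 10 most abundant features, with genes detected as a covariate, with library weights, with all 4 groups in 1 fit, with same-numbered libraries averaged, with a replicate block, and with each library left out. Python 3.11.15, numpy 2.4.6, scipy 1.17.1, pandas 2.3.3 and matplotlib 3.10.9 were used.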

Additional observations from a re-analysis of the deposited data

Results flagged for a closer look

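In 7 of the 40 sets of values (10 genes in 4 groups), 1 library lay further from its nearest neighbour than Dixon's 95% limit allows on the log2 scale, and about 2 such sets arise by chance. In splenic Treg cells after αPD1 + αGITR, Junb was listed at 0 TPM in spleen_72_b against 98.5 to 364 TPM in the others, and Nr4a1 at 0 TPM in spleen_70_c against 26.4 to 136 TPM. In splenic Treg cells after IgG2a, Egr2 was listed at 0 TPM in spleen_79_c against 9.83 to 25.6 TPM, and Nr4a2 was 9.21 TPM in spleen_369_a against at most 1.46 TPM. In GBM Treg cells after αPD1 + αGITR, Jund was 0.42 TPM in tumor_70_b against 6.49 to 23.5 TPM, and Egr1 was 1.12 TPM in tumor_73_a against 27.5 to 53.7 TPM. In GBM Treg cells after IgG2a, Nr4a3 was 0.30 TPM in tumor_369_a against 58 to 125 TPM.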

How the results depend on the processing

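The number of members past the study's threshold was most open to the processing in GBM after treatment. Against 2 genes there, TMM-type factors, library weights, all 4 groups in 1 fit and averaging same-numbered libraries gave 0, a pseudocount of 10 or 0.1 gave 1, genes detected as a covariate gave 3 and no filter gave 4. Rescaled TPM gave 2, but these were Fosb and Nr4a2 in place of Junb (1.87) and Egr2 (1.83). Between the tissues after IgG2a, 1 became 2 with TMM-type factors, all 4 groups in 1 fit, averaging and the replicate block, and 3 with library weights. After αPD1 + αGITR, 2 became 1 with a pseudocount of 0.1 and 3 with a pseudocount of 10, no filter, rescaled TPM, library weights, averaging and the replicate block, Junb not being among those of rescaled TPM, and the median of the members went from 0.47 to -0.25 with TMM-type factors. In the interaction, 1 became 2 with no filter or rescaled TPM. With each library left out, these counts ranged from 1 to 3 between the tissues after IgG2a, 2 to 4 after αPD1 + αGITR, 0 to 3 in GBM, 1 to 2 in spleen and 1 to 2 in the interaction. The medians ranged from -0.41 to 1.63, 0.30 to 1.61, -0.26 to 1.60, 0.27 to 0.73 and -0.11 to 1.08 in the same order. The cause was not tested.

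Among single genes the sign changed as follows. Below the filter, the difference of Fos in spleen after treatment, 0.21, was -0.46 without spleen_72_b and -0.08 without spleen_70_b. That of Fosb between the tissues after αPD1 + αGITR, 0.27, was -0.04 without tumor_73_b. The difference of Nr4a2 between the tissues after IgG2a, -0.07, ran from -0.51 to 0.35 with single libraries left out. Between the tissues after IgG2a, Junb was 1.14 with library weights and 0.70 without tumor_369_a, Egr1 was 0.11 without that library, and Nr4a1 was -0.02 with averaging, -0.19 with the replicate block and 0 without tumor_76_a. After αPD1 + αGITR, Egr1 was 0 with library weights and Jun 0.08 without tumor_74_a. In GBM, Egr1 and Nr4a3 were -0.05 and -0.31 with library weights, and -0.26 and -0.35 without tumor_369_a. In spleen, Egr1 was -0.10 with library weights and Junb 0.19 without spleen_72_b. The interaction of Egr2 was -0.22 with a pseudocount of 10, -0.20 with library weights and -0.02 without spleen_80_a. The interaction of Egr1, 0.14, and that of Nr4a1, 1.01, were -0.77 and -0.11 without tumor_369_a, and Egr1 was -0.18 with TMM-type factors, 0 with a pseudocount of 10 and between -0.07 and 0 in 6 further fits without a library, while Nr4a1 was -0.03 with library weights. Jun kept its direction and side of the study's threshold between the tissues after IgG2a, in spleen and in the interaction under every alternative run. With each library left out, the values of these genes ranged from -1.29 to 0.70 (Junb), -1.29 to 0.11 (Egr1) and 0 to 1.63 (Nr4a1) between the tissues after IgG2a, from -1.21 to 0.08 (Jun) after αPD1 + αGITR, from -0.26 to 1.28 (Egr1) and -0.35 to 1.30 (Nr4a3) in GBM, from -1.03 to 0.19 (Junb) in spleen and from -0.02 to 1.03 (Egr2) in the interaction. The replicate block ran only in the 2 comparisons of tissues, where it gave 5 and 495 adjusted calls against 42 and 1310, and moved Egr2 after IgG2a to -2.62 (unadjusted p = 0.027) and Nr4a1 after αPD1 + αGITR to 1.62 (unadjusted p = 0.0355), past the study's threshold. Same-numbered libraries correlated between -0.16 and 0.18 in their deviations, and of 9 shared numbers only 76 correlated best with its own. Deviations in different tissues need not be alike within a mouse, so these values cannot show whether same-numbered libraries share one. Low, widely spread TPM and groups of 5 to 8 libraries limit what is detectable here.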
